A study of Equus caballus with 19 samples.

Results

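The aryl hydrocarbon receptor pathway is described here by 6 genes: AHR, its partner ARNT, its repressor AHRR, the feedback gene TIPARP, and the CYP1 enzymes CYP1A1 and CYP1B1. They were taken as the rows with these names from tables of 29196 gene names each. The set was selected on measured values of the same libraries, among them the response of CYP1A1 to interleukin-1β (IL-1β), so the fitted changes and adjusted p-values of these 6 genes describe the libraries and are no independent test.

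The libraries are bulk RNA sequencing of equine tenocytes, the fibroblast-like cells of tendon, from the superficial digital flexor tendon of wild-type adult horses. A tenocyte line is the cells of 1 donor horse, and the cells were used at passage 3 to 7 in 3D gels of bovine type I collagen that were harvested at day 14. In the first batch, lines 1 to 5 were each kept as unstimulated control or with 1 nM IL-1β (10 libraries). In the second batch, lines 6 to 8 were each kept as control, with 1 nM IL-1β, or with 1 nM IL-1β plus 100 ng/ml of the IL-1 receptor antagonist IL1Ra (9 libraries), and no library had IL1Ra alone. The comparisons with control ask what IL-1β changes in these genes, and the third condition asks what IL1Ra, which occupies the IL-1 receptor without signalling, leaves of that change.

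AHR is a ligand-activated transcription factor of the bHLH-PAS family. Without ligand it is held in the cytoplasm by HSP90 and p23 (PTGES3). Planar aromatic pollutants, and natural indoles and tryptophan metabolites, release it to the nucleus, where it pairs with ARNT and switches on CYP1A1, CYP1B1, AHRR and TIPARP. AHRR competes with AHR for ARNT, TIPARP is an ADP-ribosyltransferase that promotes loss of AHR protein, and CYP1A1 oxidises and clears many AHR ligands. The pathway is best known from liver and barrier tissues. CYP1A1 is usually low in fibroblasts without a ligand, whereas CYP1B1 is commonly expressed in stromal cells.

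Values are normalised counts: gene counts scaled by DESeq2 to a common library size, separately in each batch. Because the counts were imported with tximport, the scaling may also hold a length correction per gene and library, which the values do not show. They are not levels per gene length, so a gene is compared with itself between conditions and levels of different genes are not ranked. Per library, normalised counts summed to between 43393903 and 49197979.5 for the first batch and between 24964149 and 34602014 for the second. These sums are not read depth, so they do not show whether a low gene rests on fewer reads in the second batch. In bulk RNA, fewer cells of a type and less RNA per cell cannot be told apart. Each fold change is a difference of log2(normalised count + 1), and p-values come from limma with Benjamini-Hochberg adjustment over all genes tested in a batch. A gene was called differentially expressed (DE) at an adjusted p under 0.05 with a change of 1 or more on the log2 scale in either direction.

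The tenocyte markers COL1A1, COL1A2, COL3A1, DCN, SCX, MKX, TNMD, THBS4 and COMP had 8 of 9 names in the tables, COL3A1 being absent. TNMD, a late tendon marker, was at 0 in every first-batch library and under 10 in every second-batch library. The summed level of the list was 1005496 to 1785467 in the first-batch controls and 424915 to 802118 with IL-1β. COL1A1 and COL1A2 made up most of it, with means of 634135 and 696773 in those controls and 190022 and 281677 with IL-1β. SCX, MKX, THBS4 and COMP also had lower means with IL-1β. DCN went the other way, from a mean of 61194 to 101598, and in the second batch from 42574 to 130467. The leukocyte markers PTPRC, CD3E, CD79A and CSF1R were under 10 in every library, whereas CD68, a lysosomal protein used as a macrophage marker, was at 56.4 to 173 in first-batch controls and 296 to 1359 with IL-1β, and in the second batch at 66.6 to 287 in control and 181 to 1769 with IL-1β. The sum of all 7 leukocyte markers, which CD14 dominated in single lines, was 58.3 to 2076 in first-batch controls and 310.3 to 3712 with IL-1β. The summed mural markers, 5 genes of smooth muscle and pericytes, were 13698 to 48617 in first-batch controls and 5636 to 11624 with IL-1β. The 6 epithelial and hepatic markers summed to 1519 to 4102 and 68.9 to 709, and the 5 endothelial markers to 22.8 to 50.2 and 17.5 to 91.0. CDH1 made up most of the epithelial and hepatic sum in the controls, at 1413 to 3904, and was at 20.5 to 544 with IL-1β. EPCAM and KRT18 were under 10 in every library, and KRT8 was at 1.74 to 7.44 and 2.02 to 11.85. The tenocyte, mural and epithelial sums thus did not overlap between the first-batch conditions, while all 5 sums overlapped between the second-batch conditions. Their part in the results below was not tested.

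AHR, the receptor, was well expressed in every library and moved in no common direction. In the first batch its normalised counts in control lines 1 to 5 were 36056, 31543, 21473, 27723 and 28268. With IL-1β the same lines had 25734, 23511, 27679.9, 34934 and 26687. The groups overlapped, lines 3 and 4 were higher and lines 1, 2 and 5 lower, and the fitted log2-fold change was -0.06 (95% CI -0.40 to 0.28, n = 5 lines, adjusted p = 0.814 by limma). In lines 6 to 8, AHR stood at 9417, 24056 and 21251 in control, 16971, 11472 and 18366 with IL-1β, and 6246, 19656 and 22199 with IL-1β plus IL1Ra. Line 6 went up with IL-1β and line 7 went down, by log2 ratios of 0.85 and -1.07, and both went the other way between IL-1β and IL-1β plus IL1Ra. The second-batch fits were -0.14 for IL-1β against control, -0.27 for IL-1β plus IL1Ra against control and -0.13 for IL-1β plus IL1Ra against IL-1β, each with a 95% CI that spanned 0.

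ARNT, which AHR needs to bind DNA and which also partners HIF1A, was higher with IL-1β in each of the 8 lines, by small amounts. First-batch controls had 3663, 2863, 3297, 3804 and 3691 normalised counts, and the IL-1β libraries of the same lines 3868, 3563, 4735, 4938 and 4609.7. The groups overlapped, the mean log2 ratio within lines was 0.32 ± 0.16 (SD, n = 5), and the fit gave 0.32 (95% CI 0.07 to 0.58, adjusted p = 0.0621 by limma). With the line as a block the adjusted p was 0.0138, still under the fold limit of a DE call. Lines 6 to 8 had 1722, 1983 and 2359.9 in control, 3436, 2318 and 3118 with IL-1β, and 2745, 2086 and 2598 with IL-1β plus IL1Ra. Every line therefore ranked IL-1β first, IL-1β plus IL1Ra second and control last, although the values of different lines overlapped. The fitted log2-fold changes were 0.54 for IL-1β against control (95% CI 0.06 to 1.02, adjusted p = 0.373 by limma), 0.29 for IL-1β plus IL1Ra against control and -0.25 against IL-1β.

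AHRR, the repressor, was also highest with IL-1β in each of the 8 lines, with larger steps than ARNT in some of them. In control lines 1 to 5 its normalised counts were 2025, 1474, 367, 1106 and 2106, and with IL-1β 2797, 1585, 920.3, 2217 and 3367. All 5 lines were higher with IL-1β, by log2 ratios between 0.10 (line 2) and 1.33 (line 3), but the lines differed so much at baseline that the groups overlapped. The fit gave 0.71 (95% CI -0.38 to 1.81, adjusted p = 0.316 by limma), and 0.0163 was the adjusted p with the line as a block. In lines 6 to 8 AHRR was 155, 1165 and 923 in control, 823, 1334 and 1618 with IL-1β, and 181, 1117 and 977 with IL-1β plus IL1Ra. The value with IL-1β plus IL1Ra lay close to that line's control, with log2 ratios of 0.22, -0.06 and 0.08, and below IL-1β in each line, with -2.18, -0.26 and -0.73. No AHRR change was DE in the second batch: the fits were 1.14 (95% CI -0.92 to 3.19), 0.08 and -1.05 for IL-1β against control, IL-1β plus IL1Ra against control and IL-1β plus IL1Ra against IL-1β, and line 6 carried the largest step of the first and the last.

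TIPARP, an immediate target of ligand-bound AHR in many cells, was present throughout and had no common direction. First-batch controls had 521, 860.0, 512, 653 and 574 normalised counts and the IL-1β libraries 934, 788, 640.1, 515 and 633. Lines 1, 3 and 5 were higher and lines 2 and 4 lower, with a fitted log2-fold change of 0.17 (95% CI -0.26 to 0.59, adjusted p = 0.563 by limma). The second-batch values were 357, 439 and 523 in control, 209, 558 and 509 with IL-1β, and 405, 536 and 458 with IL-1β plus IL1Ra. Line 6 with IL-1β was the lowest library, the conditions overlapped, and the 3 fits were -0.15, 0.09 and 0.25 in the order used for AHRR.

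CYP1A1, the enzyme most often used as a readout of AHR activity, rose in both batches and was higher with IL-1β in all 8 lines. In the first batch it had 24.4, 862, 26.1, 45.4 and 115 normalised counts in control lines 1 to 5 and 689.7, 2015, 3839, 344 and 3032 with IL-1β. Line 2 stood apart as a control: its 862 normalised counts exceeded the IL-1β values of lines 1 and 4, so the groups overlapped, and its own log2 ratio was the smallest of the 5. The log2 ratios of lines 1 to 5 were 4.76, 1.22, 7.15, 2.89 and 4.71, a mean of 4.15 ± 2.23 (SD, n = 5). The fitted log2-fold change was 4.15 (SE 1.01, 95% CI 1.92 to 6.37, adjusted p = 0.0121 by limma), and the call was lost without line 3 (3.40, adjusted p = 0.0573) or without line 5 (4.01, adjusted p = 0.0565). With the line as a block it held without line 3 (adjusted p = 0.0108 by limma) and without line 5 (adjusted p = 0.0273).

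**Figure D1:**
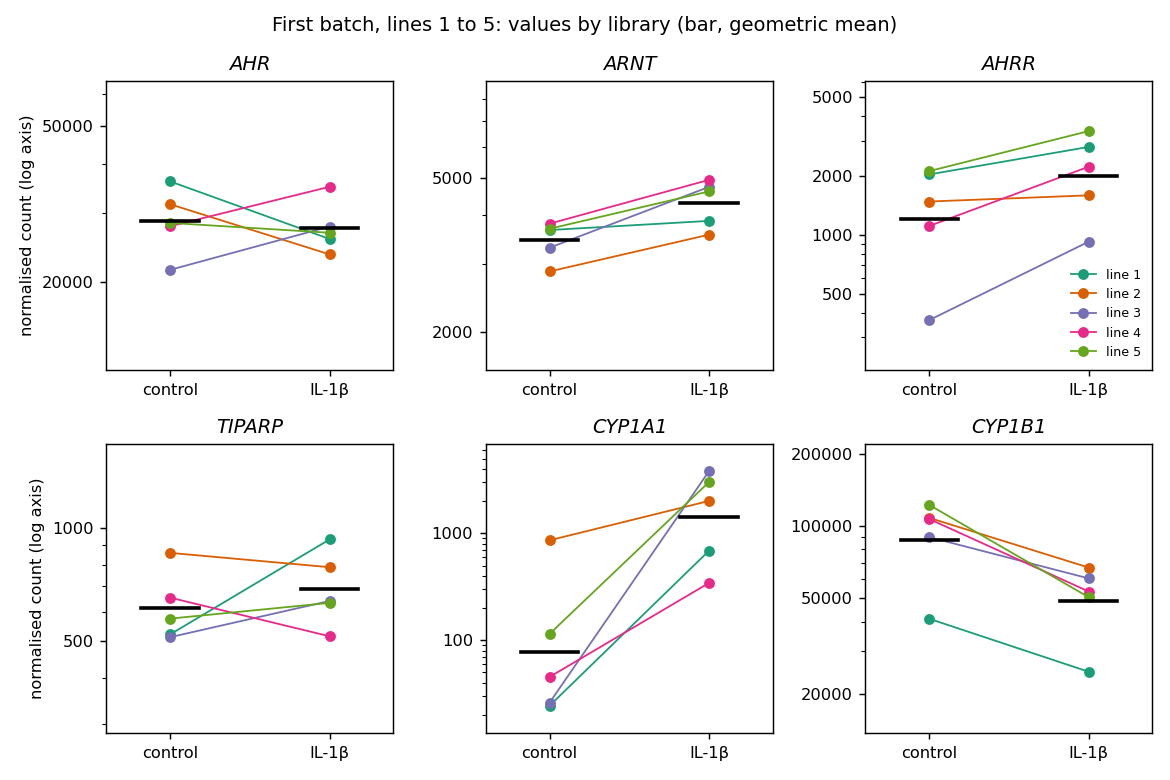
Normalised counts of the 6 genes in the 10 first-batch libraries, on log axes that differ between panels; each point is a library, thin lines join control and IL-1β of a tenocyte line, and black bars are geometric means. CYP1A1 climbs in all 5 lines, from 24.4 in line 1 and 862 in line 2 as controls, CYP1B1 goes down in all 5, and AHR and TIPARP cross.

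In the second batch CYP1A1 was nearly absent from controls, with 10.1, 9.43 and 1.73 normalised counts in lines 6 to 8. With IL-1β it had 208, 271 and 209.5, and with IL-1β plus IL1Ra 5.91, 34.7 and 9.56. All 3 IL-1β libraries were above the other 6, and the IL1Ra libraries overlapped the controls, line 6 being below its control and lines 7 and 8 above theirs. The log2 ratios of IL-1β to control were 4.24, 4.70 and 6.27, and the fit gave 5.07 (SE 0.75, 95% CI 3.35 to 6.79, adjusted p = 0.0431 by limma). CYP1A1 reached 10 normalised counts in 5 of the 9 libraries, so it passed the filter on low values through its IL-1β group, and its change on this scale understates the ratio of such low values. The call was lost without line 7 (log2-fold change 5.26, adjusted p = 0.345 by limma) and without line 8 (4.47, adjusted p = 0.710). The fitted change was larger without line 7 than with it, so the lost call does not show that line 7 carried the rise. Calls over all genes ran from 0 to 364 when a line was left out.

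Between IL-1β plus IL1Ra and IL-1β alone, CYP1A1 had log2 ratios of -4.92, -2.93 and -4.32 in lines 6 to 8. The fitted difference was -4.06 (SE 0.75, 95% CI -5.78 to -2.34), and the adjusted p was 0.639 by limma (0.152 with the line as a block), so it is not a DE call although the groups did not overlap. Against control, IL-1β plus IL1Ra differed by 1.02 (95% CI -0.71 to 2.74), an interval that includes both no difference and a several-fold residual. These second-batch comparisons share libraries: the control libraries enter the comparisons of both stimulated conditions, and the IL-1β libraries enter the first and the last.

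**Figure D2:**
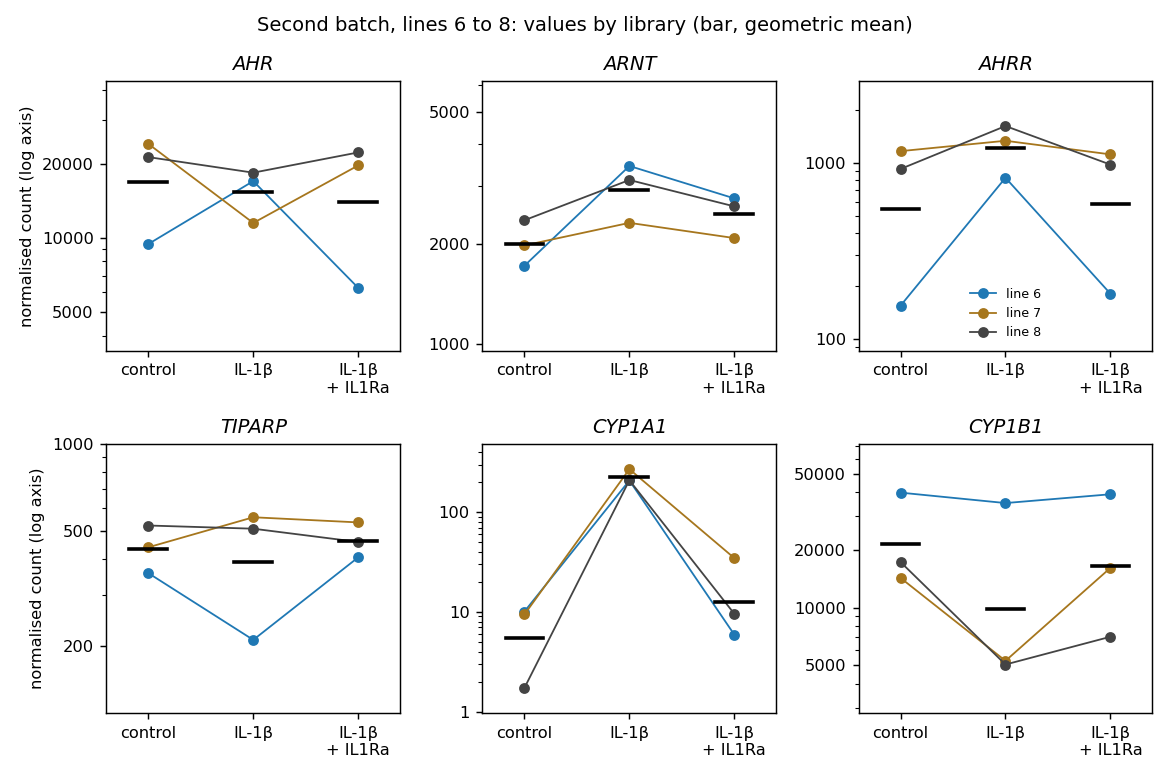
Normalised counts of the 6 genes in the 9 second-batch libraries, on log axes that differ between panels; each point is a library, thin lines join the 3 conditions of a tenocyte line, and black bars are geometric means. CYP1A1 peaks with IL-1β at 208 to 271 in all 3 lines, AHRR and ARNT peak there too by smaller steps, and CYP1B1 is lowest there.

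CYP1B1, the other CYP1 enzyme and in many cells a shared AHR target, went the opposite way from CYP1A1. In control lines 1 to 5 its normalised counts were 41077, 108329, 89997, 107122 and 122672, and with IL-1β 24697, 67196, 60552, 53381 and 50543. Each line was lower with IL-1β, by log2 ratios of -0.73, -0.69, -0.57, -1.0 and -1.28, while line 1 was the lowest line in both conditions and made the groups overlap. The fit gave -0.86 (SE 0.35, 95% CI -1.62 to -0.09, adjusted p = 0.0916 by limma). With the line as a block the adjusted p was 0.0042, and the size stayed under the fold limit.

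In lines 6 to 8 CYP1B1 was 39895, 14312 and 17326 in control, 35192, 5280.3 and 5053 with IL-1β, and 39116, 16153 and 7055 with IL-1β plus IL1Ra. Line 6 hardly moved, with a log2 ratio of -0.18 to control, whereas lines 7 and 8 had -1.44 and -1.78. With IL-1β plus IL1Ra, line 7 stood at its control level (log2 ratio 0.17) and line 8 remained lower (-1.30). The fits were -1.13 for IL-1β against control (95% CI -3.16 to 0.89, adjusted p = 0.740 by limma), -0.38 for IL-1β plus IL1Ra against control and 0.75 for IL-1β plus IL1Ra against IL-1β.

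Set against each other within a line, the 2 enzymes changed in opposite directions with IL-1β. Most of the difference below is the change of CYP1A1, on which the set was selected. The fits were 4.15 and 5.07 for CYP1A1 in the first and second batch. For CYP1B1 they were -0.86 and -1.13, neither of them DE. The log2 change of CYP1A1 minus that of CYP1B1 was 5.50, 1.91, 7.72, 3.90 and 5.99 in lines 1 to 5 (mean 5.0 ± 2.20, SD, n = 5) and 4.42, 6.14 and 8.05 in lines 6 to 8 (6.20 ± 1.81, SD, n = 3). Between IL-1β plus IL1Ra and IL-1β it was -5.07, -4.54 and -4.80 (-4.81 ± 0.27, SD, n = 3), the narrowest spread of the 4 comparisons. Between IL-1β plus IL1Ra and control it was -0.65, 1.60 and 3.25 (1.40 ± 1.96, SD, n = 3), with line 6 the nearest to its control balance. CYP1A1 had only 1.73 to 10.1 normalised counts in these controls and 5.91 to 34.7 with IL-1β plus IL1Ra, so few reads decide these values. A factor common to all genes of a library cancels in this difference, apart from the added count of 1, whereas a length correction per gene would not.

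**Figure D3:**
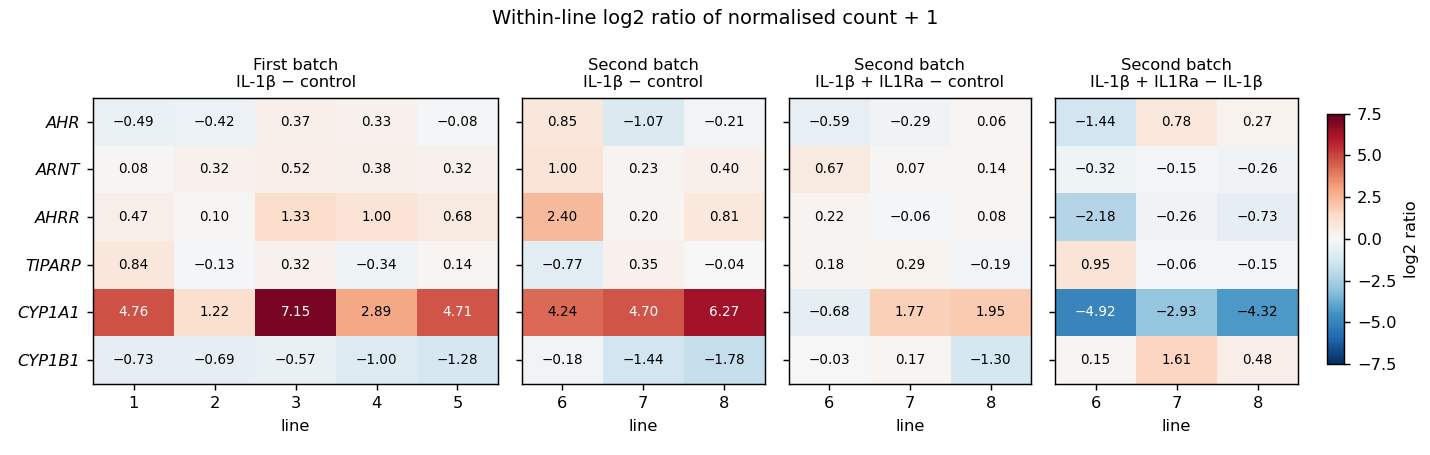
Log2 ratio of normalised count + 1 within each tenocyte line (columns) for the 6 genes (rows) in the 4 comparisons, coloured from blue (lower) to red (higher) with the ratio printed. CYP1A1 is positive with IL-1β in lines 1 to 8, from 1.22 to 7.15, and CYP1B1 is negative in lines 1 to 8, from -0.18 to -1.78.

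Of the 6 genes, 1 was DE with IL-1β in the first batch, CYP1A1, against a background of 12.8% of the 14719 genes tested, and 1 with the line as a block, against 16.2%. None of the 6 had groups without overlap there, against 19.5% of all genes. CYP1A1 was in the second batch again the 1 DE gene with IL-1β, where 0.341% of 16705 genes were called (5.18% with the line as a block, again CYP1A1 alone of the 6), and the 1 whose groups did not overlap, against 16.4%. For IL-1β plus IL1Ra against control, 0 of the 6 were DE by limma, against 0.012% of genes (0 and 0.251% with the line as a block), 0 had an unadjusted p under 0.05, and 0 had groups without overlap, against 11.8%. For IL-1β plus IL1Ra against IL-1β, 0 of the 6 were DE by limma, against 0.0% of genes (0 and 0.00599% with the line as a block). There CYP1A1 was the 1 member with an unadjusted p under 0.05 (464 of all genes had one) and the 1 without overlap, against 6.47%. The set was chosen with these values known, so nothing is read from the counts.

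**Figure D4:**
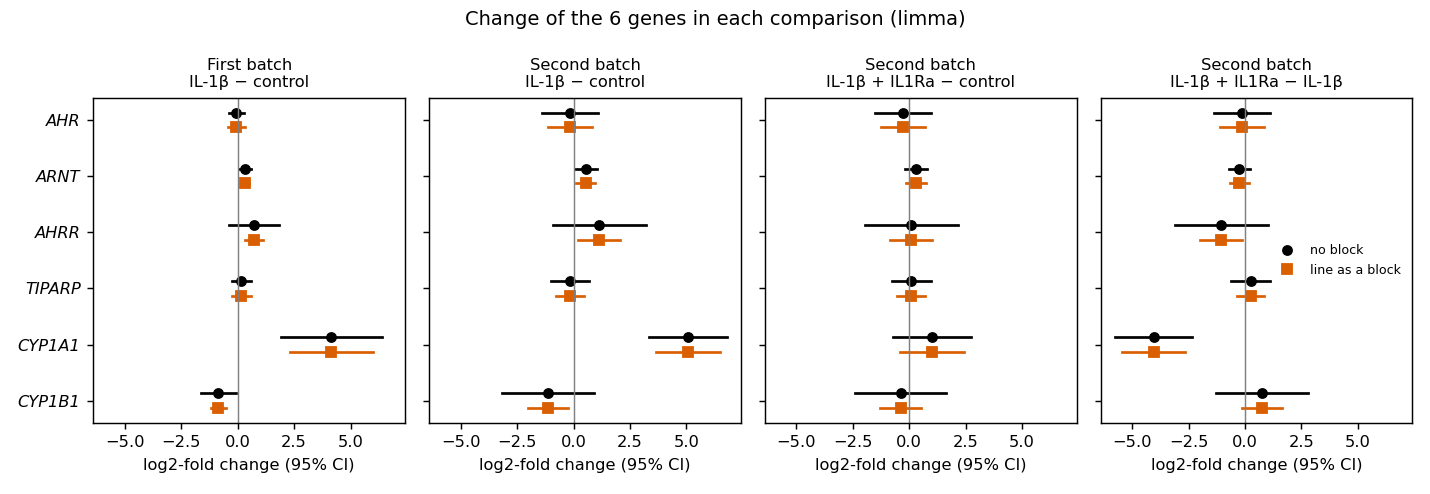
Fitted log2-fold changes (points) with 95% confidence intervals (bars) from limma for the 6 genes in the 4 comparisons, without a block (black circles) and with line fitted as a block (orange squares). CYP1A1 lies at 4.15 and 5.07 for IL-1β against control and at -4.06 for IL-1β plus IL1Ra against IL-1β, while AHR and TIPARP straddle 0 throughout.

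A list of 28 further genes of the pathway, named by function, had 26 names in the tables (UGT1A1 and UGT1A6 were not among them) and 19 tested genes in the first batch, of which 3 were DE higher with IL-1β and 2 DE lower, where 12.8% of all genes tested were DE. The median log2-fold change of the list was 0.20, beside -0.0034 over all genes tested. With the line as a block, 5 were higher and 2 lower, where 16.2% of all genes were DE. In the second batch 0 of 20 tested genes were DE with IL-1β by limma, with 4 at an unadjusted p under 0.05 (1907 of all 16705 genes had one) and a median of 0.14 beside -0.01 over all genes, and 3 were DE with the line as a block, where 5.18% of all genes were. In both comparisons with IL1Ra 0 of 20 were DE by limma, with 1 (against control) and 0 (against IL-1β) at an unadjusted p under 0.05. Of all 16705 genes, 948 and 464 had one. The list was chosen with earlier results of these data known, so nothing is read from its counts or medians.

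Among the partners and chaperones, EPAS1, the hypoxia-inducible bHLH-PAS factor that also pairs with ARNT, rose from 9822 ± 3701 to 25828 ± 3124 normalised counts (SD, n = 5), a log2-fold change of 1.48 (SE 0.26, adjusted p = 0.0023 by limma). Every IL-1β library was above every control, 20368 to 28107 against 5006 to 13542, where 19.5% of all genes tested had groups without overlap. Second-batch values went from 7220.5 ± 3576 to 16635 ± 8749 (SD, n = 3), 1.22 on the log2 scale, which was DE with the line as a block (adjusted p = 0.0286 by limma) and not without it (adjusted p = 0.424). HIF1A was higher with IL-1β in 5 of 5 first-batch lines (0.85, under the fold limit, adjusted p = 0.0019 by limma). In the second batch it had 1.04, with 3 of 3 lines higher (adjusted p = 0.338 by limma). ARNT2 was lower in 5 of 5 first-batch lines (-0.52, adjusted p = 0.0571, or 0.0085 with the line as a block, by limma) and had -0.21 in the second batch. The 3 chaperone genes had no DE call in any comparison.

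In the battery of genes that AHR can switch on, NQO1, a quinone reductase that NFE2L2 also drives, rose from 1259.5 ± 225 to 3146 ± 856 (SD, n = 5), with a log2-fold change of 1.30 (SE 0.19, adjusted p = 8.64e-04 by limma). Its groups were apart, as were those of 19.5% of all genes tested. Its second-batch values were 664 ± 257 in control, 2561 ± 1011 with IL-1β and 1309 ± 578 with IL-1β plus IL1Ra (SD, n = 3), and the 1.93 for IL-1β against control was not DE (adjusted p = 0.165, or 0.0518 with the line as a block). SERPINB2, a plasminogen activator inhibitor that AHR ligands induce in some cells, was DE in either batch only when the line was a block, with log2-fold changes of 3.36 and 2.66 (adjusted p = 0.0151 and 0.0246 by limma). Its lines were far apart, from 6.5 to 2231 in first-batch controls. NFE2L2 itself was higher with IL-1β in 5 of 5 first-batch lines, 13091 ± 694 against 7202 ± 902 (SD, n = 5). The log2-fold change of 0.87 was under the fold limit (adjusted p = 2.15e-04 by limma). In the second batch NFE2L2 had 0.92, with 3 of 3 lines higher (adjusted p = 0.118, or 0.0387 with the line as a block, by limma). CYP1A2, the closest relative of CYP1A1, was at 0 in 9 of 10 first-batch libraries and between 3.19 and 9.61 in the second batch, too low to be tested; reads that could belong to either gene may have been split between them. GSTA1, a glutathione transferase, was at 0 in every first-batch library. CYP2S1, also on the battery list, was lower with IL-1β in 5 of 5 first-batch lines, 197 ± 132 against 536 ± 756 (SD, n = 5). Its log2-fold change was -0.85 (adjusted p = 0.422, or 0.0539 with the line as a block, by limma). It was -1.25 in the second batch (adjusted p = 0.789, or 0.182 with the block, by limma). ALDH3A1 was lower in 4 of 5 first-batch lines (-0.60, adjusted p = 0.625 by limma). The tested battery genes were thus mixed in direction.

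Enzymes that make or clear tryptophan-derived ligands were low in the first batch, where 2 of 7 passed the filter, and 4 of 7 passed it in the second. AADAT, a kynurenine aminotransferase, fell from 138 ± 61.3 to 47.0 ± 13.1 (SD, n = 5), a log2-fold change of -1.46 (SE 0.35, adjusted p = 0.0114 by limma). IL4I1, an amino acid oxidase that yields AHR-activating indoles, had 30.5 ± 14.2 and 68.4 ± 32.8 (SD, n = 5) and was DE only with the line as a block (1.14, adjusted p = 0.0379 by limma), with 4 of 5 lines higher. Neither was DE in the second batch, where AADAT had -0.76 (adjusted p = 0.570, or 0.367 with the line as a block, by limma) and IL4I1 0.95. IDO1, which opens the kynurenine route from tryptophan and is named here after its values were seen, was uneven between lines: line 6 was at 0 in all conditions, line 7 had 22.3 in control, 174 with IL-1β and 5188 with IL-1β plus IL1Ra, and line 8 had 209, 63.4 and 845. IDO1 did not pass the filter of the first batch and was not tested there. Its differences were DE in no second-batch comparison.

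The electron donors that P450 enzymes depend on split. POR, the P450 reductase, rose from 2153 ± 605 to 4722 ± 2034 (SD, n = 5; log2-fold change 1.09, adjusted p = 0.0178 by limma) and CYB5A, cytochrome b5, fell from 431 ± 118 to 168 ± 85.7 (-1.45, adjusted p = 0.0081 by limma), each in 5 of 5 lines. CYB5A had in the second batch -1.54 for this comparison, DE with the line as a block (adjusted p = 0.0240 by limma), and POR 0.64, DE in neither fit. Of the 26 other P450 genes in the tables, 7 passed the filter for the first batch and 10 for the second. By limma 0 were DE with IL-1β, and 1 and 0 had an unadjusted p under 0.05. At the shares of all genes called, 12.8% and 0.341%, fewer than 1 DE call would be reached in lists of this size. An unadjusted p under 0.05 was found for 5814 of 14719 and 1907 of 16705 genes. Nothing particular to the P450 genes is read from these counts.

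**Figure D5:**
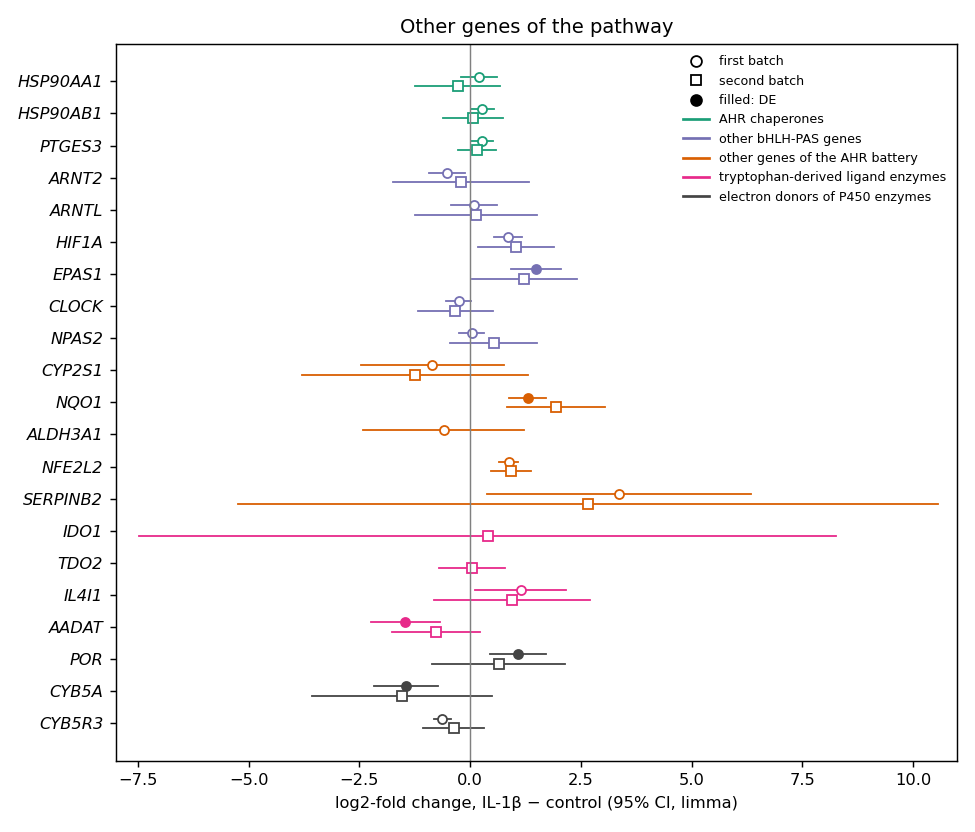
Log2-fold changes for IL-1β against control with 95% confidence intervals (limma, no block) for the pathway genes that were tested, in the first batch (circles) and the second (squares), coloured by list; filled points are DE. The 5 filled points are EPAS1, NQO1, POR, AADAT and CYB5A in the first batch, and SERPINB2 and IDO1 have the widest intervals in the second.

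Across the 10 first-batch libraries, the genes with a gene symbol (names starting with LOC left out, 2 of which had a higher r than the last of these) whose log2 values tracked CYP1A1 most closely were IMMT, ELP2, PSMC5, ILF2 and COX5A, with Pearson r of 0.942, 0.934, 0.934, 0.933 and 0.933. Over the 9 second-batch libraries their r with CYP1A1 were 0.662, 0.576, 0.620, 0.591 and 0.600. Those nearest to CYP1B1 were PYCR3, AURKC, RIMKLA, TTC23L and FAM241B, with r of 0.957, 0.952, 0.944, 0.942 and 0.940, and second-batch r of 0.039, 0.304, 0.810, 0.390 and 0.911. CYP1A1 and CYP1B1 had r of -0.251 and -0.409 with each other, and CYP1A1 had -0.129 and 0.018 with AHR. These are descriptions over libraries that share lines and treatment, taken from the top of 14478 genes.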

How the data were processed

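Equine tenocytes of 8 lines were sequenced as 19 libraries in 2 batches. The authors assigned reads with Salmon against EquCab3.0, summed them to genes with tximport and deposited DESeq2-normalised counts (signal values), 1 table of 29196 names per batch, made with DESeq2 1.36 in R 4.2.1 per the labels. The values gave no whole reads back, so count models were not used. The paper gives a range of reads per sample over the libraries. For each library only the sum of normalised counts is known, which is not its read depth. Tests were made within a batch.

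From these values log2(normalised count + 1) was computed. A gene entered when 5 first-batch or 3 second-batch libraries held 10 or more normalised counts, which left 14719 and 16705 genes. The fit used limma 3.58.1 (R 4.3.3), trended eBayes and Benjamini-Hochberg adjustment over those genes. The code was tested on simulated data. The main fit has no block; the study's methods give no design formula. Libraries of a line come from the same donor; their deviations from condition means correlated at 0.351 to 0.578 (5 pairs) and 0.535 to 0.794 (9 pairs), against -0.356 to 0.288 and -0.625 to 0.249 between lines, so the fit with the line as a block is given where it changes a call.

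Groups came from the labels, 1 library per line and condition, and 0 library pairs were identical. Lines were numbered in accession order. Of the names, 25 had been turned into dates by a spreadsheet; none is a gene described. Named were the 6 members, pathway genes DE in a comparison or at 0 in a batch, and, for CYP1A1 and CYP1B1 each, the 5 most alike genes whose names do not start with LOC. Values of HIF1A, ARNT2, NFE2L2, CYP2S1 and ALDH3A1 were added after they were seen. A gene of the pathway list is not reported here and was left out of its counts. The members and lists were chosen with earlier results of these data known. Alternatives were the pseudocount, filter, scaling, trend, block, samples fitted, threshold, and each line left out. No sequence or coordinate is given: no genome of the build was used here.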

Additional observations from a re-analysis of the deposited data

Results flagged for a closer look

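In the first batch, the control library of line 2 had 862 normalised counts of CYP1A1, while the other 4 controls had 24.4 to 115. Its gap to the nearest control was 0.892 of the range of the 5 values, past Dixon's critical value of 0.71 on the scale of normalised counts. On the log2(normalised count + 1) scale of the fits it was 0.570 and did not pass, so the flag depends on the scale. Of 12 groups of 5 libraries examined (6 genes, 2 conditions), this was the 1 group with such a library. Chance alone gives about 1 in 20 for each single group of normally distributed values. As 12 groups were examined, 1 flag is not read as rare. Line 2 also had the smallest CYP1A1 log2 ratio with IL-1β, 1.22, and its control value of TIPARP, 860.0, was above the 512 to 653 of the other controls with a gap of 0.595 of the range, under the critical value. ARNT was lowest there (2863, gap 0.461), and AHR, AHRR and CYP1B1, at 31543, 1474 and 108329, lay within the range of the others. The cause was not tested.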

How the results depend on the processing

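CYP1A1 kept its direction for IL-1β against control under every alternative in both batches, at 3.92 to 4.16 and 3.84 to 5.21 with all lines (lowest with a pseudocount of 10), and its call was lost with lines left out: in the first batch the log2-fold change without a line ran from 3.40 to 4.88, in the second from 4.47 to 5.49, and the members called ran from 0 to 1 in both. Its second-batch value of 5.07 missed the threshold (0 members called) without the filter (adjusted p = 0.0518), without the trend (0.0563) and with only the 2 conditions compared (0.0521), all by limma. With the line as a replicate block and a line left out, chosen after seeing the data, 2 members were called without line 6 (CYP1A1, and CYP1B1 at -1.61, adjusted p = 0.0412) and 0 without lines 7 or 8 (CYP1A1 5.26 and 4.47, adjusted p = 0.0873 and 0.104). For IL-1β plus IL1Ra against IL-1β, 1 was called without line 6 in that fit (CYP1A1 at -3.62, adjusted p = 0.0392). In the first batch that fit called CYP1A1 whichever line was left out. The share of all genes called was not computed for these block fits with a line left out. With all second-batch lines the block called 5.18% of genes for IL-1β against control and 0.00599% for IL-1β plus IL1Ra against IL-1β. Nothing about the members is therefore read from these counts. CYP1A1 for IL-1β plus IL1Ra against control ran from 0.53 (pseudocount of 10) to 1.86 (without line 6).

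Uncalled values that changed sign when 1 line was left out, with and without the block, were AHR in the first batch (to 0.0482 without line 1 and 0.0326 without line 2; lowest -0.17), AHR with IL-1β in the second (0.32 without line 7; lowest -0.64) and between IL-1β plus IL1Ra and IL-1β (0.53 without line 6; lowest -0.58). TIPARP did so in the first batch (-0.0023 without line 1; highest 0.29), and in the second for IL-1β (0.15 without line 6; lowest -0.40), IL-1β plus IL1Ra against control (-0.0042 without line 7; highest 0.23) and IL-1β plus IL1Ra against IL-1β (-0.11 without line 6; highest 0.44), as did CYP1B1 for IL-1β plus IL1Ra against control (0.0730 without line 8; lowest -0.66).

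Over all genes, the adjusted p alone called 4078 in the first batch (1885 with the fold limit; 1374 to 1729 without a line) and 8 pathway genes in place of 5. In the second batch IL-1β gave 57 calls, 34 without the trend or with only the 2 conditions, 865 with the replicate block and 0 to 364 without a line, and pathway calls were 0, 3 with the block and 0 to 2 without a line. IL-1β plus IL1Ra against control gave 2, 1 with equal sums, 0 with only the 2 conditions, 42 with the block and 0 to 63 without a line, and against IL-1β 0, 1 with the block and 0 to 10 without a line. Equal sums moved the median of all genes by -0.18 for IL-1β and 0.10 for IL-1β plus IL1Ra against IL-1β in the second batch, and turned no member's direction. The block alone changed no member's call. The second batch has 3 lines and few CYP1A1 reads outside IL-1β, which limits what it can show.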
